A study of Mus musculus with 3 samples.

Results

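The 9 genes described here write, maintain or remove methylation of cytosines in DNA. They are Dnmt1, Dnmt3a, Dnmt3b, Dnmt3l, Uhrf1, Tet1, Tet2, Tet3 and Tdg, taken as a named list, and all 9 were found among the 17209 genes listed in at least 1 of 3 RNA-seq libraries of mouse epiblast stem cells (EpiSCs). All 9 also passed the level filter, a mean over the libraries of at least 1 CPM (counts scaled to library size), which left 12955 genes. EpiSCs are pluripotent cells with the character of the post-implantation epiblast. The cells were of strain 129, were labelled as passage 1, and had been kept on gelatin in serum with both IWR1 and Y27632 (labelled Y27). For the IWR1 library the cells had received 2 µM IWR1 over 12 h. For the Y27 library they had received 0.5 µM Y27 over 12 h, a dose given as labelled. The NT library came from cells from which both inhibitors had been withdrawn overnight. Whether the treated cells had first been kept without inhibitor is not stated. IWR1 stabilises Axin and so dampens Wnt/beta-catenin signalling, and Y27632 is a kinase inhibitor.

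Dnmt3a and Dnmt3b place new methyl groups on CpG dinucleotides, with Dnmt3l as a cofactor that has no catalytic activity of its own, and Dnmt1 copies methylation onto the new strand after replication, guided by Uhrf1. Tet1, Tet2 and Tet3 oxidise methylated cytosine, and Tdg cuts out the oxidised bases so that repair can restore an unmodified cytosine. Epiblast cells after implantation are known for high Dnmt3b, whereas naive embryonic stem cells are known for higher Dnmt3l and Tet2.

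Dnmt3b and Tet1 had the largest folds among the members with more than 100 reads in every library, so the 250 bases upstream of their RefSeq start sites in GRCm38.p6 are shown, with each CpG, the dinucleotide these enzymes act on, in capitals. Both are written 5′ to 3′ on the gene's own strand. The Dnmt3b window lies at chr2:153649199-153649448 on the plus strand, and the Tet1 window at chr10:62887325-62887574 on the minus strand.
Dnmt3b: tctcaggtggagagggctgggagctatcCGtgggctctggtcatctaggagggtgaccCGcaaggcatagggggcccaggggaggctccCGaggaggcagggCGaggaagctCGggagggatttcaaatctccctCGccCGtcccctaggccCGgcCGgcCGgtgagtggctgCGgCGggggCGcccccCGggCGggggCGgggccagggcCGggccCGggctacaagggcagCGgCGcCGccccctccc
Tet1: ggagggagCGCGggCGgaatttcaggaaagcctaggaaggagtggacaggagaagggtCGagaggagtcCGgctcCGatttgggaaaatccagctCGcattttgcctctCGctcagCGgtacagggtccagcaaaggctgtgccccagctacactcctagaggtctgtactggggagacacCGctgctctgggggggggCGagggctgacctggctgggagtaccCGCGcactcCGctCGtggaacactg
The Dnmt3b window held 21 CpG and the Tet1 window 15, against a median of 6 over the 32851 windows of the same length from 27025 genes. Their ranks by CpG number were the 85.2 and 74.6 percentiles. CpG number differed widely within the family: the Tet2 window held 51, whereas the 3 Dnmt3l windows held 5, 4 and 3. Because IWR1 acts on Wnt signalling, the windows were also searched on both strands for CTTTGA and CTTTGT, core letters bound by TCF/LEF factors, the DNA-binding partners of beta-catenin. Neither core was in the Dnmt3b or the Tet1 window. Of the 16 windows of the 9 genes, 2 held one, in 1 of the Dnmt1 and 1 of the Dnmt3a windows, and 27.6% of all windows did. The absence of these letters from 250 bases says nothing about binding elsewhere, and the methylation of these windows was not measured here.

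The estimated read counts summed to 5607725 in IWR1, 5459332 in Y27 and 5767550 in NT. Each group had 1 library, so no difference below has a replicate check, no p-value was computed, and the intervals after folds are exact 95% intervals that cover counting error only. The EpiSC label held: Pou5f1 stood at 1318 CPM in IWR1, 1163 CPM in Y27 and 1463 CPM in NT, all 11 EpiSC markers were listed, and the naive marker Zfp42 had 1 read in IWR1 and 0 in the other libraries. Of 12 naive markers 10 were listed, summing to 60.6 CPM in IWR1, 61.0 CPM in Y27 and 81.5 CPM in NT, of which Klf5 made up 33.8, 36.9 and 52.0 CPM and Tfcp2l1 12.3, 13.9 and 14.3 CPM. Primitive streak markers, 7 of 7 listed, summed to 470 CPM in IWR1, 1981 CPM in Y27 and 1976 CPM in NT. Among them Mixl1 had 0 reads in IWR1, 47 in Y27 and 61 in NT. Mesp1, which did not pass the level filter, had 0, 1 and 4 reads. Long transcripts ran higher in both treated libraries: the 239 genes of 10 kb or more had a median log2 difference of 0.37 for IWR1 over NT and 0.56 for Y27 over NT. The nuclear RNA Malat1 moved the same way, at 628 CPM in IWR1, 857 CPM in Y27 and 264 CPM in NT.

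On the length-corrected FPKM scale (reads scaled to transcript length and to library size), the 3 genes that lead the maintenance and de novo writing of methylation stood far above the Tet genes in every library. In IWR1 the order was Dnmt3b at 177, Uhrf1 at 101, Dnmt1 at 76.0, Dnmt3a at 24.6, Tdg at 15.03, Tet1 at 10.5, Tet3 at 4.93, Dnmt3l at 1.7 and Tet2 at 0.48 FPKM. In Y27 it was Dnmt3b at 103, Uhrf1 at 99.0, Dnmt1 at 74.3, Dnmt3a at 20.8, Tdg at 11.1, Tet1 at 10.2, Tet3 at 4.28, Tet2 at 0.75 and Dnmt3l at 0.71 FPKM. In NT it was Uhrf1 at 108, Dnmt3b at 88.0, Dnmt1 at 72.0, Dnmt3a at 17.9, Tdg at 15.7, Tet3 at 4.87, Tet1 at 4.58, Dnmt3l at 2.69 and Tet2 at 0.41 FPKM. Dnmt3b thus led the list in both treated libraries and stood second to Uhrf1 in NT. Some neighbours in these orders were not separated by counting error: in Y27, Dnmt3b per Uhrf1 was 1.04 (0.977 to 1.10), Tdg per Tet1 1.08 (0.919 to 1.26) and Tet2 per Dnmt3l 1.07 (0.449 to 3.10), and in NT, Tet3 per Tet1 was 1.06 (0.911 to 1.24). In IWR1 every neighbouring pair was separated by it.

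**Figure D1:**
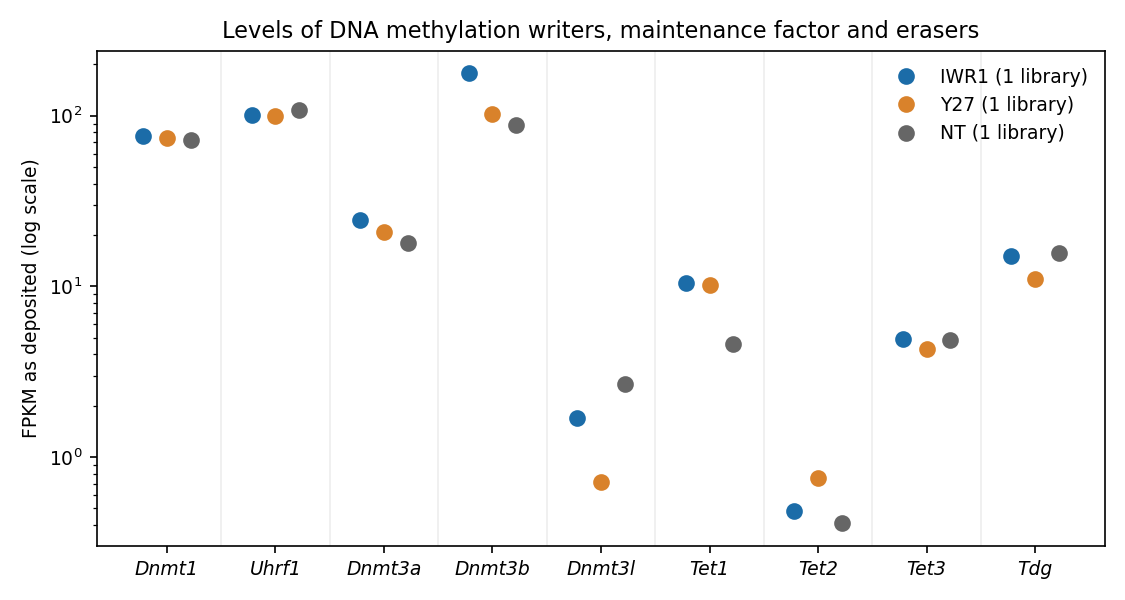
Deposited FPKM (log scale) of the 9 genes in the IWR1, Y27 and NT libraries, 1 point per library with no error bar since each group had 1 library. Dnmt3b is highest in IWR1 at 177 FPKM, Tet1 is lowest in NT at 4.58 FPKM, and Dnmt1 lies between 72.0 and 76.0 FPKM in all 3 libraries.

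Among the de novo writers, Dnmt3b (Entrez Gene 13436) had 4200 reads in IWR1, 2374 in Y27 and 2143 in NT, which is 750, 425 and 379 CPM. It was high in every library, at the 97, 94.8 and 93.1 percentiles of FPKM among the genes compared in IWR1, Y27 and NT, and highest in IWR1. Its level in IWR1 was 1.98-fold that in NT (1.88 to 2.09) and 1.76-fold that in Y27 (1.68 to 1.86), while Y27 over NT was 1.12 (1.06 to 1.19). Its log2 difference of IWR1 over NT, taken as log2 of (CPM + 1) in each library, was 0.98, just under the 2-fold mark of 1. Dnmt3b has a transcript of 4190 bases with a GC content of 53.3%. With the length trend removed the difference was 0.92, and with the trends on length and GC removed it was 1.09. The log2 difference of Y27 over NT was 0.17 as measured, 0.07 with length removed and 0.31 with length and GC removed. In these bulk libraries, a difference in the share of cells that express a gene and a difference in RNA per cell cannot be told apart.

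Some markers of the cell state moved with Dnmt3b and others did not. Of the 11 EpiSC markers, 6 were higher and 5 lower in IWR1 than in NT. They had a median log2 difference of 0.50 for IWR1 over NT and -0.23 for Y27 over NT, and summed to 2779 CPM in IWR1, 2242 CPM in Y27 and 2644 CPM in NT. None of them was at 0. Otx2, a homeobox factor of the anterior epiblast, had 126 CPM in IWR1, 77.8 CPM in Y27 and 63.0 CPM in NT, and Fgf5, a growth factor of the post-implantation epiblast, had 68.1, 29.9 and 20.7 CPM in the same order. Pou5f1, Nanog, Nodal, Fgf8 and Sox3 were lower in IWR1 than in NT, with log2 differences of -0.15, -0.39, -0.47, -0.69 and -0.10. T (Brachyury), a primitive streak factor, also ran against Dnmt3b, at 364 CPM in IWR1, 1652 CPM in Y27 and 1688 CPM in NT. The part of these markers in the Dnmt3b difference was not tested. Among the 7711 genes averaging 20 CPM or more, the 3 nearest to Dnmt3b in their pair of log2 differences over NT were Map1b, at a distance of 0.0901, Otx2 at 0.135 and Slc23a2 at 0.142, over 3 libraries. Map1b, a microtubule-associated protein gene, had 329 CPM in IWR1, 202 CPM in Y27 and 176 CPM in NT.

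Dnmt3a (Entrez Gene 13435) differed less and, as measured, in the same order of libraries. It had 1288 reads in IWR1, 1071 in Y27 and 966 in NT, or 230, 192 and 171 CPM. IWR1 over NT was 1.35 (1.24 to 1.46), Y27 over NT 1.12 (1.03 to 1.23) and IWR1 over Y27 1.20 (1.10 to 1.30), all under 1.5-fold. Its direction for Y27 over NT depended on the correction: the log2 difference was 0.17 as measured, -0.20 with the length trend removed and 0.09 with length and GC removed. For IWR1 over NT the log2 difference was 0.43 as measured, 0.19 with the length trend removed and 0.39 with length and GC removed. With the length trend alone removed, Y27 and not NT was thus the lowest library. Per kilobase, Dnmt3b stood 7.17-fold above Dnmt3a in IWR1 (6.73 to 7.63), 4.92-fold in Y27 (4.57 to 5.29) and 4.90-fold in NT (4.54 to 5.29). The tables give 1 row per gene, so the long and short Dnmt3a isoforms were not told apart.

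Dnmt3l (Entrez Gene 54427), the cofactor, was close to the limit of detection. It had 16 reads in IWR1, 6 in Y27 and 26 in NT, or 2.86, 1.08 and 4.60 CPM. The Y27 library was lowest and the NT library highest. Its level in Y27 was 4.28-fold below that in NT (1.72 to 12.7), with a log2 difference of -1.43, whereas IWR1 was 1.61-fold below NT (0.831 to 3.21) and 2.66-fold above Y27 (0.988 to 8.29). The interval of each of those last 2 folds holds 1, so no difference was detectable at this depth. Fibroblast markers, 7 of 7 listed, summed to 72.0 CPM in IWR1, 56.3 CPM in Y27 and 116 CPM in NT, an order that rested on Col1a1. Without Col1a1, a sum added after its values were seen, the other 6 came to 17.4 CPM in IWR1, 25.2 CPM in Y27 and 34.0 CPM in NT. Pdgfrb, a receptor of mesenchymal cells, was lowest in IWR1, with 1.97 CPM there, 12.0 CPM in Y27 and 13.8 CPM in NT. Col1a1 was the nearest gene to Dnmt3l by its 2 log2 differences, at a distance of 0.0682, with 54.7 CPM in IWR1, 31.0 CPM in Y27 and 82.3 CPM in NT, and Krt18 (0.0923) and Hspb1 (0.175) came next. The counting intervals of the Dnmt3l folds are far wider than these distances, so its few reads do not settle which genes are nearest. Postn had 0 reads in IWR1, 1 in Y27 and 1 in NT, and Dcn had 2, 0 and 3, too few to read a direction from. The part of these markers in the Dnmt3l difference was not tested.

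The maintenance pair lay within 1.13-fold of NT in both treated libraries. Dnmt1 (Entrez Gene 13433) had 2313 reads in IWR1, 2203 in Y27 and 2261 in NT, or 413, 395 and 400 CPM. Its folds were 1.03 for IWR1 over NT (0.974 to 1.10), 0.987 for Y27 over NT (0.930 to 1.05) and 1.05 for IWR1 over Y27 (0.987 to 1.11). These 3 intervals reach 0.930 at their lowest and 1.11 at their highest, and all hold 1. Uhrf1 (Entrez Gene 18140) had 1999 reads in IWR1, 1918 in Y27 and 2197 in NT, or 357, 344 and 389 CPM. It was slightly lower in both treated libraries, 1.09-fold in IWR1 (1.02 to 1.16) and 1.13-fold in Y27 (1.06 to 1.20). Its log2 differences over NT were -0.12 and -0.18 as measured and -0.15 and -0.22 with the length trend removed. With length and GC trends removed they were 0.01 and -0.00, so this small difference depended on the correction. Per kilobase, Uhrf1 stood 1.32-fold above Dnmt1 in IWR1 (1.24 to 1.40), 1.33-fold in Y27 (1.25 to 1.41) and 1.49-fold in NT (1.41 to 1.58).

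The balance between de novo writing and maintenance enzymes at the RNA level was farthest towards Dnmt3b in IWR1. Per kilobase, Dnmt3b per Dnmt1 was 2.33 in IWR1 (2.21 to 2.45), 1.38 in Y27 (1.30 to 1.46) and 1.22 in NT (1.15 to 1.29). The 3 catalytic methyltransferases summed to 278 FPKM in IWR1, 198 FPKM in Y27 and 178 FPKM in NT, and Dnmt3b made up 63.8%, 51.9% and 49.5% of those sums.

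Among the oxidising enzymes, Tet1 (Entrez Gene 52463) was low in the NT library alone. It had 842 reads in IWR1, 794 in Y27 and 378 in NT, or 150, 142 and 66.9 CPM. IWR1 over NT was 2.25 (1.99 to 2.55) and Y27 over NT 2.13 (1.88 to 2.41), while IWR1 over Y27 was 1.06 (0.958 to 1.17). Both folds over NT share the NT library, so they are not separate observations of a Tet1 difference. The Tet1 counts are fractional, which means that some of its reads were shared out with other loci. Tet1 had the longest transcript of the 9, at 14082 bases, and the lowest GC content, 43.6%. Of the 239 genes of 10 kb or more, 6.28% passed 2-fold upward in IWR1 over NT and 25.5% in Y27 over NT. The log2 differences of Tet1, 1.16 for IWR1 over NT and 1.08 for Y27 over NT, were 0.81 and 0.54 with the length trend removed, and 0.62 and 0.26 with length and GC trends removed, all under the 2-fold mark. The nuclear RNAs Malat1 and Neat1 also stood lowest in NT, Neat1 with 47.2 CPM in IWR1, 51.8 CPM in Y27 and 21.9 CPM in NT. They belong to a list of 9 genes taken for RNA quality, of which 4 were listed. These 4 summed to 785 CPM in IWR1, 1055 CPM in Y27 and 353 CPM in NT, of which Malat1 made up 628, 857 and 264 CPM. Of the other 2 genes, Meg3 had 103, 141 and 61.9 CPM in the same order. H19 ran otherwise and was lowest in Y27, with 6.57, 4.94 and 5.6 CPM. The part of these genes in the Tet1 difference was not tested. The nearest genes to Tet1 were Cmah at a distance of 0.0408, Exoc5 at 0.0826 and Zfp146 at 0.0989. Cmah, a sialic acid hydroxylase gene, had 2497 CPM in IWR1, 2399 CPM in Y27 and 1148 CPM in NT. The counting intervals of the Tet1 folds over NT are wider than these distances, so which genes are nearest to Tet1 is not settled.

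**Figure D2:**
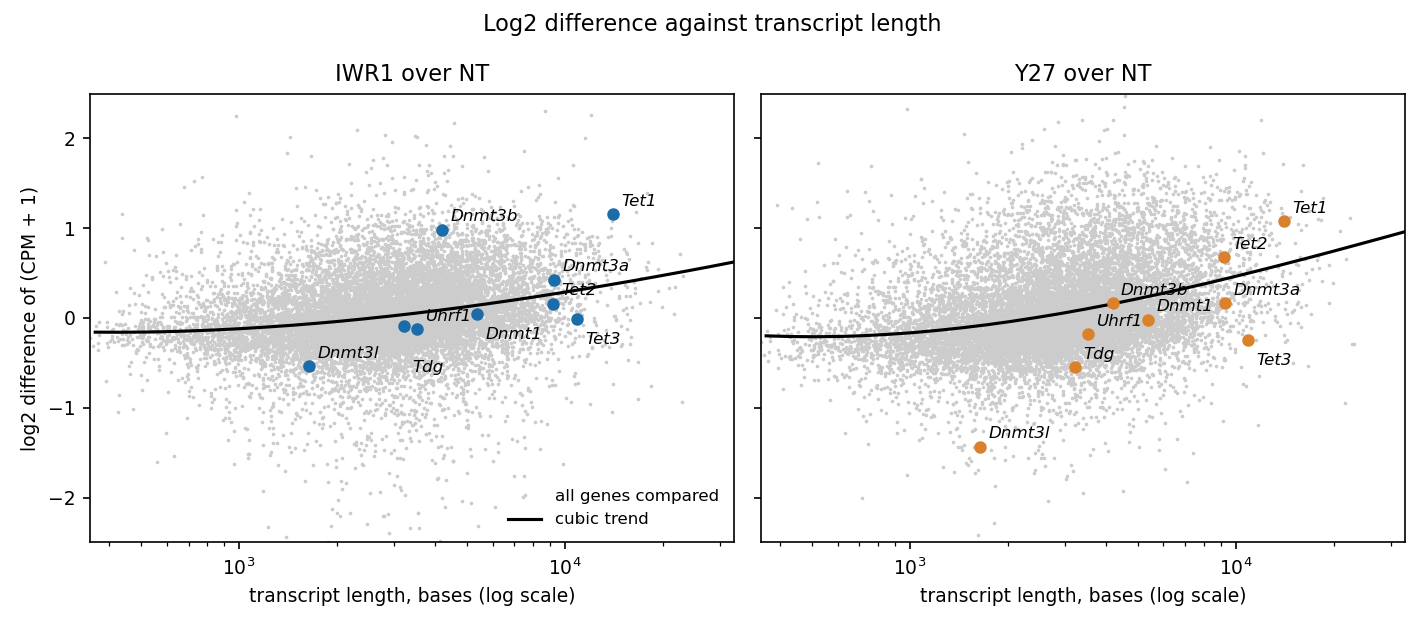
Log2 difference of (CPM + 1) against transcript length in bases (log scale) for IWR1 over NT and Y27 over NT; grey points are all genes compared, apart from 55 and 38 genes outside the axes, the line is the cubic trend, and named points are the 9 genes. Tet1, at 14082 bases, lies above a trend that itself climbs with length, and Tet3, at 10907 bases, lies below it.

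Tet3 (Entrez Gene 194388), of 10907 bases and 53.4% GC, did not share the Tet1 pattern. It had 306 reads in IWR1, 258 in Y27 and 311 in NT, or 54.7, 46.2 and 55.0 CPM. IWR1 over NT was 0.994 (0.846 to 1.17), and Y27 was 1.19-fold below NT (1.01 to 1.41). The log2 difference of Y27 over NT was -0.25 as measured, -0.68 with the length trend removed and -0.31 with length and GC trends removed. The length trend alone gave the most negative value because genes of its length ran higher in Y27. For IWR1 over NT the log2 difference was -0.01 as measured, -0.29 with the length trend removed and -0.03 with length and GC trends removed. Tet2 (Entrez Gene 214133) was barely read, with 25 reads in IWR1, 38 in Y27 and 22 in NT, or 4.47, 6.81 and 3.89 CPM. It was highest in Y27, 1.75-fold above NT (1.01 to 3.11), and IWR1 over NT was 1.15 (0.621 to 2.13), a direction that turned with length and GC trends removed, to a log2 difference of -0.16. With length and GC trends removed its log2 difference of Y27 over NT was 0.19, against 0.67 as measured. The genes nearest to Tet2 were D630045J12Rik (0.0262), Nr3c1 (0.0423) and Dynlt1a (0.0459), and Nr3c1, the glucocorticoid receptor gene, had log2 differences of 0.19 for IWR1 over NT and 0.64 for Y27 over NT. The counting intervals of the Tet2 folds are far wider than these distances, so which genes are nearest to Tet2 is not settled either.

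Within the Tet family, Tet1 stood above Tet3 in both treated libraries, while in NT the pair was not separated by counting error. Tet1 per Tet3, per kilobase, was 2.13 in IWR1 (1.87 to 2.44), 2.38 in Y27 (2.07 to 2.75) and 0.942 in NT (0.808 to 1.10). Tet1 made up 66.0% of the summed Tet FPKM in IWR1, 67.0% in Y27 and 46.5% in NT, and Tet3 31.0%, 28.1% and 49.4%. The sums were 15.9 FPKM in IWR1, 15.2 FPKM in Y27 and 9.86 FPKM in NT. These ratios and shares were not corrected for the trends on length and GC.

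Tdg (Entrez Gene 21665), the glycosylase that acts after the Tets, was lowest in Y27. It had 273 reads in IWR1, 196 in Y27 and 293 in NT, or 48.7, 35.2 and 51.9 CPM, and its counts too are fractional. Its level in Y27 was 1.47-fold below that in NT (1.23 to 1.78), with a log2 difference of -0.55 both as measured and with length and GC trends removed, just under the 1.5-fold mark. IWR1 over NT was 0.940 (0.795 to 1.11), and IWR1 over Y27 was 1.38 (1.15 to 1.68). Tdg per Tet1, per kilobase, was 1.42 in IWR1 (1.23 to 1.63), 1.08 in Y27 (0.919 to 1.26) and 3.39 in NT (2.90 to 3.96). Like the other ratios per kilobase, this one was not corrected for the trends on length and GC. Removing those trends lowered the log2 differences of Tet1 to 0.62 for IWR1 over NT and 0.26 for Y27 over NT.

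Counted over the 9 genes, the libraries differed in few members. For IWR1 over NT, 1 gene (Tet1) was at least 2-fold higher, where 2.28% of all genes compared were, and 0 were at least 2-fold lower, where 2.25% were. At 1.5-fold, 2 were higher (Dnmt3b and Tet1) against 10.8% of all genes, and 0 were lower against 6.37%. For Y27 over NT, 1 gene (Tet1) was at least 2-fold higher against 5.58% of all genes, and 1 (Dnmt3l) lower against 1.34%. At 1.5-fold, 2 were higher (Tet1 and Tet2) against 14.9%, and 1 (Dnmt3l) lower against 5.53%. For IWR1 over Y27, none was at least 2-fold higher or lower, where 1.38% and 2.90% of all genes were. At 1.5-fold, 2 were higher (Dnmt3b and Dnmt3l) against 5.06%, and 0 were lower against 8.20%. With 9 genes, counts of 1 or 2 cannot be set apart from these backgrounds. The median log2 difference of the 9 was 0.05 for IWR1 over NT, -0.02 for Y27 over NT and 0.24 for IWR1 over Y27, beside medians over all genes of -0.00, -0.02 and 0.00. In IWR1 over Y27, 8 of the 9 were higher in IWR1, as were 6493 of the 12955 genes compared. Of those 8, the counting intervals of Dnmt1, Uhrf1, Tet1, Tet3 and Dnmt3l held 1, and those of Dnmt3a, Dnmt3b and Tdg did not.

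**Figure D3:**
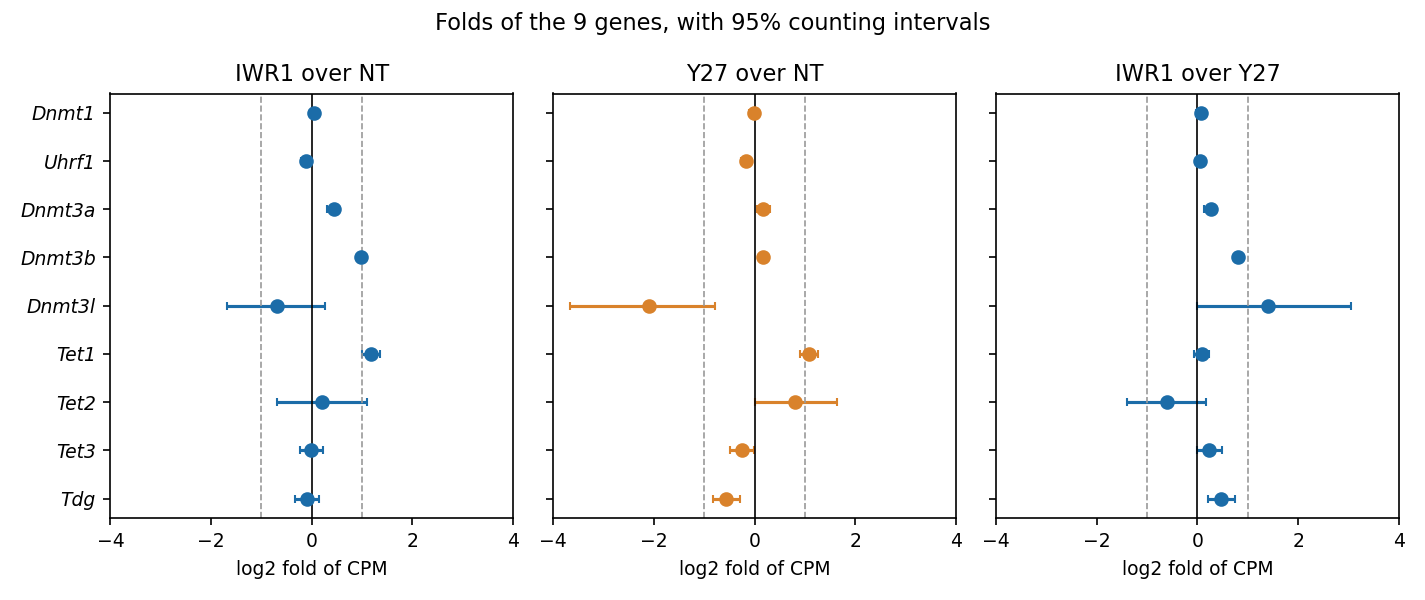
Log2 fold of CPM, without a pseudocount, of the 9 genes for IWR1 over NT, Y27 over NT and IWR1 over Y27, with 95% intervals for counting error only and dashed lines at 2-fold. The Dnmt3b points lie right of 0 with narrow intervals in both comparisons that have IWR1 on top, the Tet1 points in both comparisons with NT, and the widest intervals are those of Dnmt3l, which had 16 reads in IWR1, 6 in Y27 and 26 in NT.

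Proteins that work with the writers were mostly level. Of 16 listed by role, 14 were compared, with a median log2 difference of 0.10 for IWR1 over NT and 0.09 for Y27 over NT. Hells, a chromatin remodeller that gives Dnmt enzymes access to nucleosomal DNA, had 140 CPM in IWR1, 164 CPM in Y27 and 64.9 CPM in NT, with log2 differences of 1.09 and 1.32 over NT. Hells has 37.7% GC, and its differences were 0.56 and 0.51 with length and GC trends removed. Setd2, which methylates histone H3 at the lysine that the Dnmt3 proteins can read through their PWWP domain, had 116 CPM in IWR1, 149 CPM in Y27 and 69.7 CPM in NT, with log2 differences of 0.73 and 1.09, or 0.37 and 0.54 with those trends removed. Hells and Setd2 were the 2 partners at least 1.5-fold higher over NT in each treated library. That is 2 of 14, beside 10.8% of all genes compared for IWR1 over NT and 14.9% for Y27 over NT. None was 1.5-fold lower, beside 6.37% and 5.53%. Usp7, a deubiquitinase bound by Uhrf1 and Dnmt1, had 289 CPM in IWR1, 243 CPM in Y27 and 194 CPM in NT. Its log2 differences over NT were 0.57 and 0.32, or 0.41 and 0.08 with length and GC trends removed. Nsd1, another histone methyltransferase, had 127 CPM in IWR1, 138 CPM in Y27 and 104 CPM in NT. Its transcript has 12784 bases, and its log2 differences of 0.29 and 0.40 turned to -0.04 and -0.10 with those trends removed. Uhrf2, the Uhrf1 paralogue, had 73.8 CPM in IWR1, 110 CPM in Y27 and 92.7 CPM in NT, and Dmap1, which binds Dnmt1, had 27.2, 29.9 and 40.2 CPM. The log2 differences of Dmap1 were -0.55 and -0.41, or -0.33 and -0.11 with those trends removed.

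The 10 genes listed as readers of methylated CpG were all compared. Whether the protein of each binds methylated CpG was not checked. The median log2 difference of the 10 genes was 0.01 for IWR1 over NT and 0.32 for Y27 over NT. Zbtb33 (Kaiso), a zinc finger protein that binds methylated DNA, had 33.2 CPM in IWR1, 53.2 CPM in Y27 and 19.8 CPM in NT, with log2 differences of 0.72 and 1.38 over NT, or 0.14 and 0.51 with length and GC trends removed. It was the list's gene at least 1.5-fold higher in IWR1 over NT, 1 of 10 beside 10.8% of all genes. In Y27 over NT 3 of 10 were, beside 14.9% of all genes, among them Zbtb33 and Mbd5, a gene at 17.7 CPM in Y27 and 9.91 CPM in NT. The log2 difference of Mbd5 was 0.78, or 0.45 with those trends removed, which is under 1.5-fold, as is the 0.51 of Zbtb33. None was 1.5-fold lower in either, beside 6.37% of all genes for IWR1 over NT and 5.53% for Y27 over NT. Mbd2, a methyl-CpG reader of the NuRD complex, had 16.1 CPM in IWR1, 23.3 CPM in Y27 and 20.2 CPM in NT.

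Of 23 genes for demethylation cofactors and base excision repair, 20 were compared, with medians of -0.10 for IWR1 over NT and -0.18 for Y27 over NT. Gadd45b, a stress gene tied to active demethylation, had 31 reads in IWR1, 37 in Y27 and 91 in NT, or 5.54, 6.63 and 16.1 CPM. Its log2 differences were -1.39 and -1.16, and -1.15 and -0.84 with length and GC trends removed. Its relative Gadd45g, named after its values were seen, stood at 0.893 CPM in IWR1, 0.538 CPM in Y27 and 2.48 CPM in NT, on 5, 3 and 14 reads. Its fold was 0.361 for IWR1 over NT (0.102 to 1.06) and 0.217 for Y27 over NT (0.040 to 0.778), so in IWR1 no difference was detectable at this depth. These 2 were the list's genes at least 1.5-fold lower in each treated library, 2 of 20 beside 6.37% of all genes for IWR1 over NT and 5.53% for Y27 over NT. Cxxc4, a binding partner of Tet2 also named after its values were seen, had 22 reads in IWR1, 29 in Y27 and 10 in NT. These are 3.93, 5.20 and 1.77 CPM. Cxxc4 was the list's gene at least 1.5-fold higher in IWR1 over NT, 1 of 20 beside 10.8% of all genes. Its fold there was 2.22 (1.01 to 5.25). Its log2 difference was 0.83, or 0.56 and under 1.5-fold with length and GC trends removed. In Y27 over NT, Neil3 and Ogt joined Cxxc4, making 3 of 20 beside 14.9% of all genes. Neil3, a DNA glycosylase, had 9.68 CPM in Y27 and 4.60 CPM in NT. Ogt, a sugar transferase that binds Tet proteins, had 274 CPM in Y27 and 161 CPM in NT. The log2 difference of Ogt was 0.77, or 0.35 with those trends removed, which is under 1.5-fold. Apobec1, a cytidine deaminase, had 42 reads in IWR1, 24 in Y27 and 32 in NT. It was the list's gene at least 1.5-fold higher in IWR1 over Y27, 1 of 20 beside 5.06% of all genes. None was 1.5-fold lower in that comparison, beside 8.20%.

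The supply of S-adenosylmethionine, the methyl donor, differed little at the RNA level. Of its 16 genes 14 were compared, with medians of 0.08 for IWR1 over NT and -0.05 for Y27 over NT. None was past 1.5-fold in either direction in any of the 3 comparisons. Of all genes, 10.8% were that much higher and 6.37% lower for IWR1 over NT. The shares were 14.9% and 5.53% for Y27 over NT, and 5.06% and 8.20% for IWR1 over Y27. Mat2a, which makes the donor, had 377 CPM in IWR1, 320 CPM in Y27 and 315 CPM in NT. Ahcy, which clears its product, had 131 CPM in IWR1, 156 CPM in Y27 and 164 CPM in NT. Shmt2, a mitochondrial enzyme that feeds one-carbon units, had 201 CPM in IWR1, 136 CPM in Y27 and 197 CPM in NT. S phase genes, which share the cell cycle timing of Dnmt1 and Uhrf1, were compared in 22 of 22 cases, with medians of -0.02 for IWR1 over NT and -0.12 for Y27 over NT. Of these 22, 1 was at least 1.5-fold higher in each comparison, Ccne2 (cyclin E2), beside 10.8% and 14.9% of all genes. None was 1.5-fold lower, beside 6.37% and 5.53%. Ccne2 had 24.5 CPM in IWR1, 33.0 CPM in Y27 and 14.5 CPM in NT. With length and GC trends removed its log2 differences were 0.05 and 0.06. Pcna, the replication clamp that binds Dnmt1, had 372 CPM in IWR1, 339 CPM in Y27 and 369 CPM in NT.

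**Figure D4:**
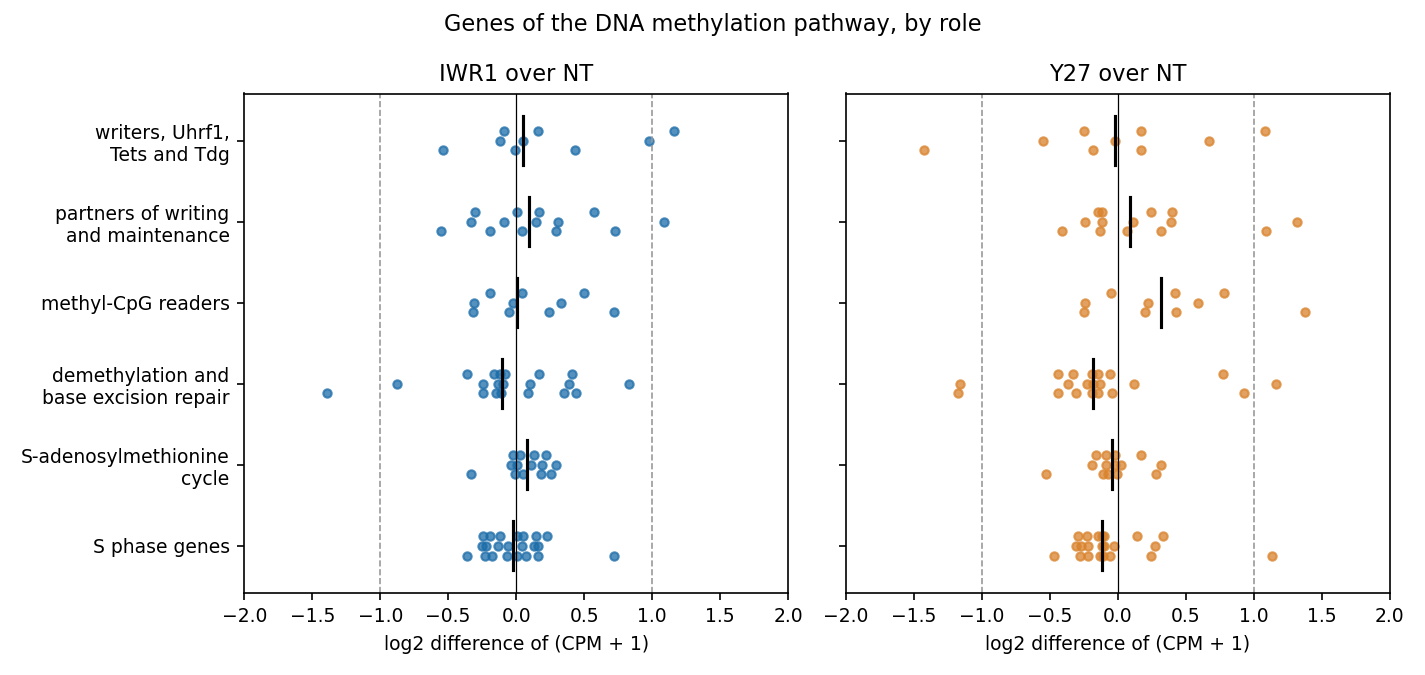
Log2 difference of (CPM + 1) for each compared gene of 6 lists, for IWR1 over NT and Y27 over NT, with black bars at each list's median and dashed lines at 2-fold. List medians lie between -0.10 and 0.10 in IWR1 over NT and between -0.18 and 0.32 in Y27 over NT.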

How the data were processed

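RNA-seq tables of 3 EpiSC libraries were used, 1 per group, grouped by the labels. Per the file headers, each deposited table gives per Entrez Gene identifier a transcript length, an expected count (estimated reads, with shared reads divided between genes) and an FPKM value. The expected counts were deposited by the authors without normalization, and their FPKM values, recalculated here from the counts and lengths, matched within 2% for 94.1%, 94.0% and 94.2% of genes with over 50 counts in IWR1, Y27 and NT. Bowtie 0.12.2 and mm8 are named in the submitters' processing notes; the counting tool was not given in the sources used here. Genes absent from a table were taken as 0. Symbols (17160 identifiers, 99.7%) and upstream windows came from RefSeq GRCm38.p6 and GC content (12825 genes) from GENCODE annotation, another assembly than mm8, so only the windows have coordinates.

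Scaling to CPM used TMM (edgeR 4.0.16, R 4.3.3), with factors of 0.998, 1.02 and 0.980 in IWR1, Y27 and NT. Log2 differences used a pseudocount of 1 CPM, which understates low genes, with 2-fold and 1.5-fold marks. Counts were rounded for the exact conditional binomial 95% intervals. Trends on log2 length and GC were removed by cubic fits. The members and gene lists were chosen with earlier results of these data known. Named genes were the 9, up to 4 of each list and comparison by size of difference with at least 30 reads, the 3 nearest genes to each member past 1.5-fold, and EpiSC checks; not all named by the rule are printed, and 1 reader past 1.5-fold is not reported here. Scripts, in Python 3.11.15 (numpy 2.4.6, pandas 2.3.3, scipy 1.17.1, matplotlib 3.10.9), were tested on simulated data.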

Additional observations from a re-analysis of the deposited data

How the results depend on the processing

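No paired analysis was possible because each group had 1 library, and for the same reason no replicate could be left out. Alternatives were a pseudocount of 0.1 or 5 CPM, scaling to the library total, DESeq2 1.42.0 size factors or upper quartile, no level filter or at least 5 CPM, 1.5-fold and 3-fold marks, deposited FPKM, removal of trends on length or on length and GC, and genes with whole counts only. Members past 2-fold for IWR1 over NT numbered 1 as reported, 2 with the library total, with FPKM or at 1.5-fold (Dnmt3b crosses the mark), and 0 at 3-fold, with the length trend removed or with whole counts, where Tet1 is not among the genes. With length and GC removed it stayed 1, but then it was Dnmt3b at 1.09 and not Tet1 at 0.62. For Y27 over NT there were 2 as reported, 1 with 5 CPM as pseudocount or with the 5 CPM filter (Tet1), 1 with either trend removal or with whole counts (Dnmt3l), and 0 at 3-fold. For IWR1 over Y27 there were 0 as reported, 1 with a pseudocount of 0.1 CPM or FPKM (Dnmt3l), and 2 at 1.5-fold. Trend removal lowers the Tet1 values by construction, since its long transcript and low GC lie where the trends are high. That they end under 2-fold also depends on their size, 1.16 for IWR1 over NT and 1.08 for Y27 over NT as measured.

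All genes past 2-fold for IWR1 over NT numbered 587, and 1006, 178, 368, 2229, 122 and 912 with pseudocounts of 0.1 and 5 CPM, the 5 CPM filter, 1.5-fold, 3-fold and FPKM. For Y27 over NT they numbered 896, and 382, 2645, 107, 376 and 566 with a pseudocount of 5 CPM, 1.5-fold, 3-fold, length and GC removed, and whole counts; 80.7% of them were higher, against 66.8% with length and GC removed. For IWR1 over Y27 they numbered 555, and 906, 199, 315, 1718, 142 and 835 with the settings as for IWR1 over NT. Of 288 member values under these settings, 268 stayed within the counting interval of the reported value. In 12 the sign differed or the value rounded to 0 (of Dnmt1, Dnmt3a, Tet2, Tet3 and Uhrf1, with values between -0.20 and 0.09). The causes of the other changes were not tested. Dnmt3l and Tet2, with at most 38 reads in a library, are limited by depth.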

Other observations

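Genes that promoter methylation is known to keep silent outside the germ line were at or near the limit of reading. Of 14 such genes, 6 were listed in at least 1 library and 2 passed the level filter. Sycp1, a protein of the synaptonemal complex of meiosis, had 9 reads in IWR1, 12 in Y27 and 1 in NT, and Brdt, a testis bromodomain protein, had 11 reads in IWR1, 4 in Y27 and 9 in NT. Sycp3, of the same meiotic complex, had 1 read in IWR1, 5 in Y27 and 0 in NT. The 14 summed to 4.48 CPM in IWR1, 5.27 CPM in Y27 and 2.12 CPM in NT, few enough reads that no direction is read from them.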
